A study of Drosophila melanogaster with 13 samples.

Results

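Messenger RNA from adult heads was compared between flies carrying the G9aDD1 allele, a mutant allele of *G9a*, and flies of a precise excision line with an intact gene (*G9a*+/+). The comparison used 6 of the 13 samples of the series, or 6 of its 10 RNA-seq libraries, 3 for each genotype. Of 15682 genes counted, the 12329 genes with at least 10 counts summed over these 6 libraries were tested. The other samples were 4 RNA-seq libraries of a *trr* knockdown experiment and 3 ChIP-seq samples of wildtype heads. The 4 libraries were 2 of the knockdown, in which elav-Gal4 drove a hairpin in neurons, and 2 of its controls. Flies were 0 to 5 days old by the labels and 1 to 5 days old by the methods of the study. Neither *G9a* genotype was given a treatment. Each library came from an aliquot of many frozen heads that had been shaken off and sieved away from the bodies, so each replicate is a pool of flies, and the sexes in the pools are not given. Each genotype was represented by 1 line, so the *G9a* allele and any other difference between the lines cannot be told apart.

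*G9a* is the fly ortholog of the mammalian EHMT proteins and is an enzyme that methylates lysine on the tail of histone H3 (H3K9). Methylated H3K9 is bound by heterochromatin proteins such as HP1 and is found at silent genes and in compacted chromatin, although euchromatic genes carry the mark as well. Flies without *G9a* are viable, and the gene is known for roles in dendrite branching, learning and memory, and the response to starvation and viral infection. A head holds the brain and the eyes as well as fat body, blood cells (haemocytes), glia, muscle, antennae and cuticle, and all of these contribute to the RNA. In such bulk RNA fewer cells of a type and less RNA per cell cannot be told apart.

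The 6 libraries had between 18114408 and 25294014 reads counted on genes, and no pair of libraries of a group agreed within sampling noise (chi-square per degree of freedom between 23.3 and 44.1). Levels are given in CPM, the counts of a library scaled to a common total after TMM normalisation, and are not corrected for gene length, so they are compared between libraries and not between genes. Neurons, photoreceptors and glia were all represented in the 6 libraries, with summed levels of 4286 to 4812 CPM for 6 neuronal markers, 35940 to 55110 CPM for 5 photoreceptor markers and 1859 to 2408 CPM for 6 glial markers. Both libraries numbered 3 held RNA of tissues from outside the head. Markers of testis and male accessory gland summed to 127 CPM in mutant replicate 3, to 13.7 CPM in control replicate 3 and to at most 1.84 CPM in the other 4 libraries. Digestive proteases of the midgut summed to 100.3 CPM in control replicate 3 and to at most 1.98 CPM in the other 5. The yolk protein genes and *fit*, which mark the fat body of females, summed to 7247 CPM in control replicate 3, to 2788 and 3570 CPM in the other controls and to 2029 to 3107 CPM in the mutants. The roX RNAs, which are made in males, summed to 685 to 904 CPM in the controls and 1088 to 1362 CPM in the mutants, with no overlap. Neither of the 2 roX genes was called with edgeR, while DESeq2's Wald test called 1 of them higher. In all, 282 genes were over 4-fold higher in mutant replicate 3 than in both other mutant libraries, and 2 of them were called, while 68 genes were over 4-fold higher in control replicate 3 than in both other controls, and 0 of them were called. The first principal component (45.4% of the variance) set mutant replicate 3 apart from the rest, and the second (27.5%) separated the groups. Counts without both libraries numbered 3 are therefore given beside the gene groups.

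**Figure D1:**
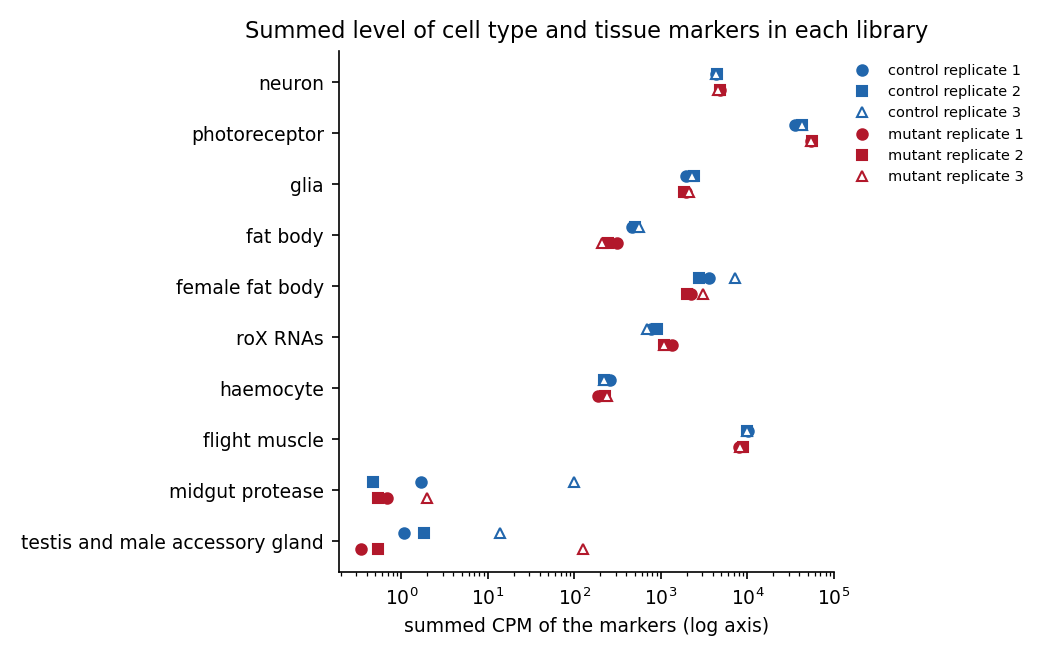
Summed CPM (log axis) of the markers of each cell type or tissue, with 1 point per library, controls in blue and mutants in red, and replicate 3 as an open triangle. Neuronal markers lie close together but slightly higher in every mutant library, and glial markers overlap between the groups. Fat body markers are lower and photoreceptor markers higher in the mutants. Midgut proteases stand out in control replicate 3 (100.3 CPM) and testis and accessory gland markers in mutant replicate 3 (127 CPM).

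*G9a* itself was not lower in the libraries labelled *G9a* mutant. It had 61.1, 57.0 and 50.9 CPM in the controls and 74.8, 67.2 and 61.3 CPM in the mutants, so that the lowest mutant value lay just above the highest control value. The log2 fold change was 0.27 (standard error 0.11, edgeR adjusted p = 0.188), with a 95% interval of 0.01 to 0.53. The study describes these heads as *G9a* null mutants. The counts are per gene and not per exon, so whether a part of the gene is missing from the RNA was not examined. The groups are therefore called mutant and control after their labels. None of the 5 tested genes on either side of *G9a* on the X chromosome was called. Among 14 tested genes that write, remove or read H3K9 methylation, 1 was called, against 7.56% of all genes tested. This was *ADD1*, a chromatin protein with an ADD domain found in heterochromatin, which had 49.8, 52.4 and 48.5 CPM in the controls and 82.4, 93.3 and 78.8 CPM in the mutants. It was higher in every mutant library (log2 fold change 0.76, standard error 0.10, edgeR adjusted p = 0.00235). The other H3K9 methyltransferases were close to the controls, with log2 fold changes of 0.02 for *egg* (edgeR adjusted p = 0.93) and -0.14 for *Su(var)3-9* (edgeR adjusted p = 0.848). The gene for the H3K9 reader HP1a had a log2 fold change of 0.25 (edgeR adjusted p = 0.254). Of 15 other histone methylation enzymes 0 were called, with a median log2 fold change of 0.04, the same as the 0.04 over all genes tested.

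Of the 12329 genes, 932 (7.56%) were called, a gene being called where its adjusted p was under 0.05 and the groups differed over 1.5-fold. Most of them were lower in the mutants: 687 genes (5.57%) were lower and 245 (1.99%) were higher. The decreases were also the larger changes. Their median log2 fold change was -1.04 against 0.85 for the increases, and 82 genes were lower by over 4-fold against 32 higher by over 4-fold. Decreases were about as frequent among genes of 1 to 10 CPM (7.04%) as among genes of 10 to 100 CPM (7.24%) and of 100 CPM or more (6.34%), and were rare under 1 CPM (0.617%). In all 932 genes the 3 control values and the 3 mutant values did not overlap, as was the case for 31.9% of all genes tested. DESeq2's Wald test called 1093 genes, which included 923 of the 932. Without both libraries numbered 3, 754 genes were called (178 higher and 576 lower), 666 of them among the 932. All 932 kept their sign, which tells little, since groups that do not overlap leave almost no room for a change. The share of reads that could not be aligned was 12.2% to 20.4% in the controls and 7.86% to 9.30% in the mutants, with no overlap. With this share as a covariate 221 genes were called, 28 higher and 193 lower, and its part in the result was not tested further since it cannot be told apart from the genotype.

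**Figure D2:**
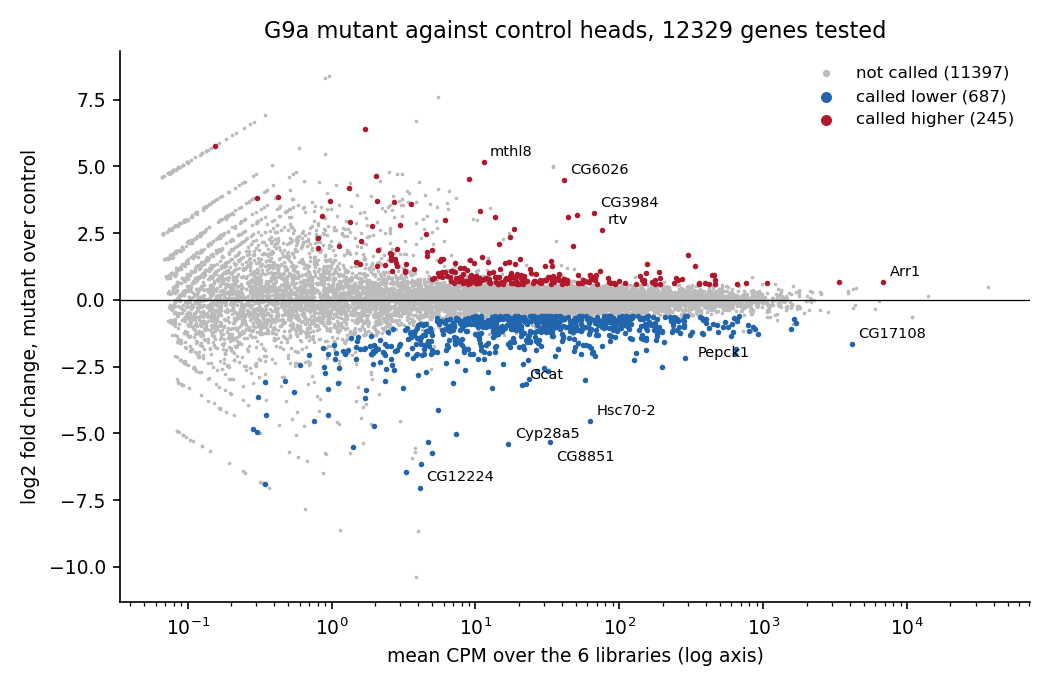
Log2 fold change of each tested gene (mutant over control) against its mean CPM over the 6 libraries (log axis), with called genes in red (245 higher) and blue (687 lower). The points of the called genes that were lower reach further from 0 than those of the genes that were higher.

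Several of the strongest increases were in genes at a few CPM or less in the controls. The receptor gene *mthl8*, a member of the Methuselah-like family of G protein-coupled receptors, had 0.675, 0.567 and 0.604 CPM in the controls and 24.9, 20.4 and 21.4 CPM in the mutants. All 3 mutant libraries lay far above all 3 controls (log2 fold change 5.17, standard error 0.16, edgeR adjusted p = 9.17e-06). Of 12 tested Methuselah-like genes *mthl8* was the only 1 called higher, and *mthl2* was called lower (log2 fold change -2.50, edgeR adjusted p = 0.0292). Over all genes tested 1.99% were higher and 5.57% lower. The call of *mthl2*, which overlaps *Eaf6*, was lost without both libraries numbered 3 (edgeR adjusted p = 0.0855). *Cpr56F*, a cuticle protein gene that overlaps *CkIIbeta2*, had 0.90, 0.33 and 1.06 CPM in the controls and 18.9, 13.7 and 19.6 CPM in the mutants. *CG6026* was at 2.47, 3.02 and 4.88 CPM in the controls and nearly constant in the mutants, at 78.3, 79.1 and 77.7 CPM. The mutant values of both genes exceeded every control value by over 10-fold. *CG8172* was counted 0, 0 and 2 times in the controls, at or under the floor of 3 counts, and 74, 85 and 82 counts in the mutants, and was at least 20.1-fold higher.

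Other strong increases were in genes of varied function. *Sk1* encodes sphingosine kinase, which makes the signalling lipid sphingosine 1-phosphate, and had 2.08, 1.61 and 2.06 CPM in the controls and 21.1, 18.4 and 19.2 CPM in the mutants (log2 fold change 3.35, standard error 0.15, edgeR adjusted p = 3.65e-05). The gene *rtv* encodes a small membrane-anchored protein needed to organise chitin in the embryonic trachea. It rose from 21.2, 18.1 and 23.7 CPM in the controls to 138, 116 and 136 CPM in the mutants (log2 fold change 2.63, standard error 0.13, edgeR adjusted p = 4.36e-05). Both changes were many times the spread within a group. The lncRNA gene CR42646 rose from 0.281, 0.614 and 0.705 CPM to 5.0, 9.11 and 5.54 CPM (log2 fold change 3.60 for *lncRNA:CR42646*, edgeR adjusted p = 0.00148). *CecA1*, a cecropin (an antibacterial peptide), stood among the 15 strongest increases with 2.65, 3.03 and 10.02 CPM in the mutants against 0.45, 1.13 and 0.654 CPM in the controls, but its highest value came from mutant replicate 3. Without both libraries numbered 3 its log2 fold change was 1.81 with an edgeR adjusted p of 0.0581, which missed the threshold, and it was called in 3 of the 6 fits that left out 1 library. The other 14 of the 15 strongest increases were called in all 6 such fits.

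The strongest decreases brought genes of clear expression in the controls down to a few reads. *CG12224* was counted 135, 189 and 157 times in the controls and 2, 0 and 2 times in the mutants, and was at least 55.4-fold lower. *Cyp28a5*, a cytochrome P450, had 42.2, 31.2 and 26.1 CPM in the controls and 0.686, 0.892 and 0.752 CPM in the mutants (log2 fold change -5.40, standard error 0.24, edgeR adjusted p = 3.65e-05). The antennal gene *Obp99d*, an odorant-binding protein, had 13.8, 15.7 and 13.3 CPM in the controls and 0.833, 0.116 and 0.396 CPM in the mutants (log2 fold change -5.03, standard error 0.48, edgeR adjusted p = 0.000624). In these 3 genes every mutant value was over 10-fold below every control value.

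In another pair of genes mutant replicate 3 differed from the other mutant libraries. *CG8851*, which overlaps the scavenger receptor gene *Sr-CIV*, was counted 1278, 1334 and 1131 times in the control libraries and 0, 3 and 114 times in the mutant libraries, and *Hsc70-2*, a heat shock cognate gene of the Hsp70 family, was counted 1990, 2830 and 2270 and 11, 21 and 347 times. The reads of both genes in the mutants came almost entirely from replicate 3, the library that also held testis and accessory gland RNA, and the part of that RNA in these reads was not tested. Over the 6 libraries the log2 fold change was -5.32 for *CG8851* (standard error 0.97, edgeR adjusted p = 0.0114) and -4.55 for *Hsc70-2* (standard error 0.93, edgeR adjusted p = 0.0188). *Hsc70-2* was called in 3 of the 6 fits that left out 1 library and lost its call without any 1 of the controls, while the other 14 of the 15 strongest decreases were called in all 6 fits. Without both libraries numbered 3, *Hsc70-2* had an edgeR adjusted p of 1.36e-06 and a log2 fold change of -7.47.

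Several of the strongest decreases were in enzymes and carriers of small molecules. *Oatp33Eb*, an organic anion transporter that overlaps *CG5418*, was at 7.76, 9.06 and 7.75 CPM in the controls and 0.049, 0.0776 and 0.198 CPM in the mutants. *Gcat*, a mitochondrial enzyme of threonine and glycine breakdown, fell from 34.5, 38.7 and 41.5 CPM to 4.17, 4.81 and 3.52 CPM (log2 fold change -3.20, standard error 0.15, edgeR adjusted p = 3.65e-05). The P450 gene *Cyp4e3* was at 38.7, 40.2 and 42.2 CPM in the controls and 4.61, 6.05 and 3.05 CPM in the mutants, and the glycosyltransferase gene *Ugt35C1* at 7.65, 5.38 and 4.08 and 0.931, 0.582 and 0.238 CPM. In these genes, as in all called genes, the controls and the mutants formed separate ranges. *IFT57*, a subunit of the transport machinery of cilia, had 9.44, 11.5 and 10.02 CPM in the controls and 0.588, 0.737 and 0.436 CPM in the mutants (log2 fold change -4.12, standard error 0.26, edgeR adjusted p = 0.00013).

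**Figure D3:**
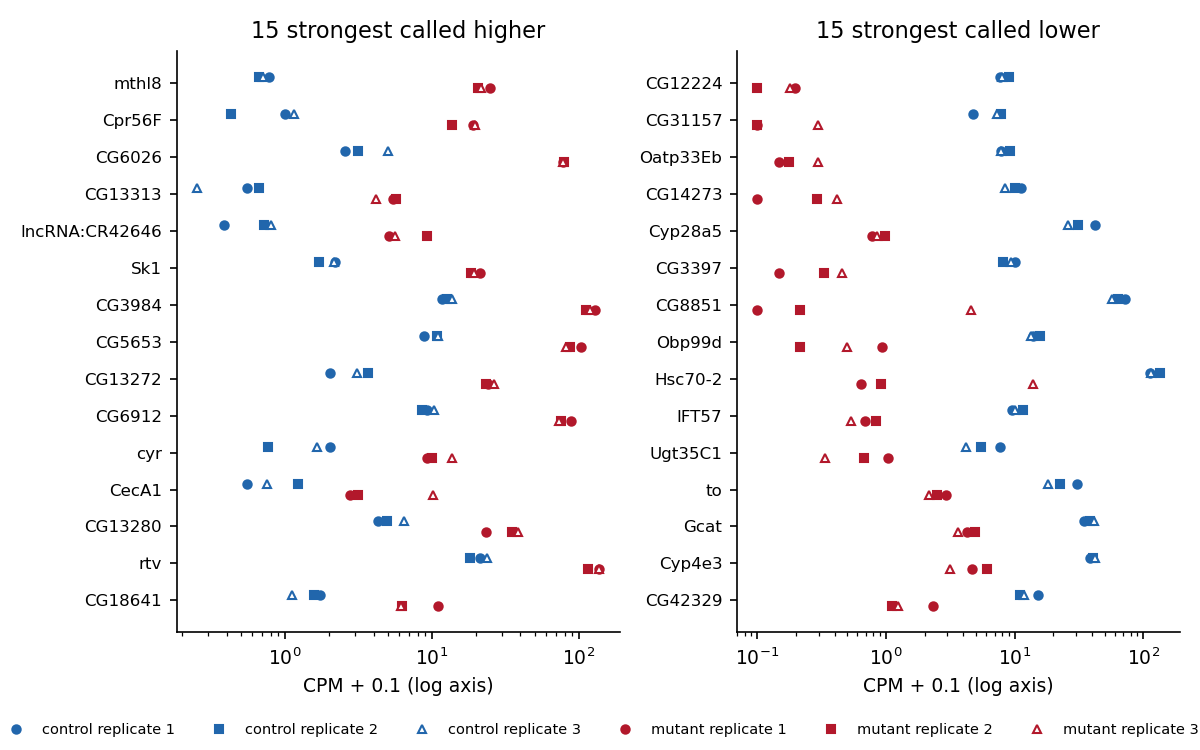
CPM plus 0.1 (log axis) of the 15 strongest genes called higher and the 15 strongest called lower, with 1 point per library, controls in blue and mutants in red, and replicate 3 as an open triangle. The groups are separate in every gene, which the choice of these genes required. Mutant replicate 3 lies apart from the other mutants in CecA1, CG8851 and Hsc70-2.

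The 4 libraries of the *trr* experiment, made from other genotypes, give the levels of these 30 genes in heads of flies whose labels name no *G9a* allele. They were sequenced for another comparison, and all 10 libraries were scaled together for this description. In 10 of the 15 strongest increases all 4 *trr* libraries were nearer to the mean of the *G9a* controls on the log scale, as for *rtv*, which had 19.1 to 23.0 CPM there against a *G9a* control mean of 20.4 and a *G9a* mutant mean of 125 CPM. In 4 of the 15 all 4 were nearer to the *G9a* mutants. *CG3984* was one of them, with 120.1 to 134 CPM in the *trr* libraries against means of 12.3 CPM in the *G9a* controls and 115 CPM in the *G9a* mutants, and *Sk1*, *CG6912* and *cyr* were the others. Among the 15 strongest decreases all 4 *trr* libraries were nearer to the *G9a* controls in 7 and nearer to the *G9a* mutants in 7. *Hsc70-2* had 0.233 to 0.561 CPM in the *trr* libraries, below the *G9a* mutant mean of 4.84 CPM and far below the *G9a* control mean of 116 CPM. *Cyp28a5*, by contrast, had 52.5 to 66.2 CPM in the *trr* libraries, above its *G9a* control mean of 32.2 CPM. For *CG3984* and *Hsc70-2* the *G9a* controls were thus the group farther from the *trr* libraries. These are values side by side with no test, since the experiments differ in genotype throughout.

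Some of the called genes were neighbours. Runs of at least 3 adjacent tested genes called in the same direction were found 20 times for decreases, with 71 genes in all, and 2 times for increases, with 6 genes. The runs of decreases depended on single libraries, since many of their members were close to the threshold. Without both libraries numbered 3, 9 of the 20 still held 3 adjacent called genes and 8 kept every gene, while both runs of increases kept every gene. With 1 library left out at a time, 7 (without mutant replicate 2) to 16 (without mutant replicate 1) of the 20 still held 3 adjacent called genes. The number was 8 without control replicate 1 or control replicate 2, 11 without control replicate 3 and 12 without mutant replicate 3. The gene order is that of the Release 6 annotation. The longest run held 7 genes on arm 2L, *NimB2*, *NimB3*, *NimB4*, *NimB5*, *NimC1*, *Cyp28a5* and *NimC2*. The Nimrod genes in it encode receptors and secreted proteins with EGF-like repeats, of which *NimC1* is a phagocytosis receptor of haemocytes. Their log2 fold changes ranged from -0.70 for *NimB2* (edgeR adjusted p = 0.00994) to -3.38 for *NimC1* (edgeR adjusted p = 0.00501), and *Cyp28a5*, between *NimC1* and *NimC2*, had the largest at -5.40. Genes of this run overlap others in the annotation, *NimB2* with NimB1, *NimB5* with He and *NimC2* with *rk*. *NimC4*, a phagocytosis receptor in another run of 3 on the same arm, was also lower (log2 fold change -1.96, edgeR adjusted p = 0.00122). Of the 10 tested Nimrod genes 7 were called lower, beside 5.57% of all genes tested. This list was drawn up after these values had been seen. With the libraries numbered 3 left out, 6 were lower, and *NimC2* at the end of the run was not called (edgeR adjusted p = 0.0664). With the share of reads not aligned as a covariate, 0 of the 10 were called.

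A second run of 5 genes on 2L held *CG8851*, *Sr-CIV*, *CG8852*, *Spindly* and *IFT57*, with log2 fold changes of -5.32 for *CG8851*, -2.42 for *CG8852*, -1.64 for *Spindly* and -4.12 for *IFT57*. *Sr-CIV* was counted 70, 54 and 36 times in the controls and 0, 2 and 2 times in the mutants, within the floor of 3 counts. The tested neighbours on either side, CG3213 and *drm*, were not called. All 4 *trr* libraries were also low for *CG8851* (0 to 0.0401 CPM), *CG8852* (0.841 to 0.982 CPM), *Spindly* (0.718 to 1.16 CPM) and *IFT57* (0.24 to 0.544 CPM). On 3R, *Hsc70-2*, *CG31157*, *CG7966* and *pic* formed a run of 4, with log2 fold changes of -4.55, -6.45, -2.67 and -1.52. The *trr* libraries had levels as low as the mutants for *Hsc70-2* and *CG31157* (0.0389 to 0.20 CPM) but not for *CG7966* (32.2 to 47.3 CPM). A run of 3 on the same arm, *CG18547*, *CG12224* and *CG3397*, had log2 fold changes of -1.96 for *CG18547* and -5.34 for *CG3397*, and there the *trr* libraries had levels near those of the *G9a* controls or above them (6.5 to 8.03 CPM for *CG12224* and 15.7 to 18.2 CPM for *CG3397*). The runs of increases were *CG13313*, *ValRS-m* and *CG5653* on 3L, with log2 fold changes of 3.67, 1.33 and 3.17, and *CG6912*, *CG3984* and *CG3987* on 3R, with 3.09, 3.24 and 1.87. Some runs include overlapping genes, such as *CG8852* and *Spindly*, and whether the counting used the strand is not given in the sources used here, so reads of such pairs may not be separate.

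**Figure D4:**
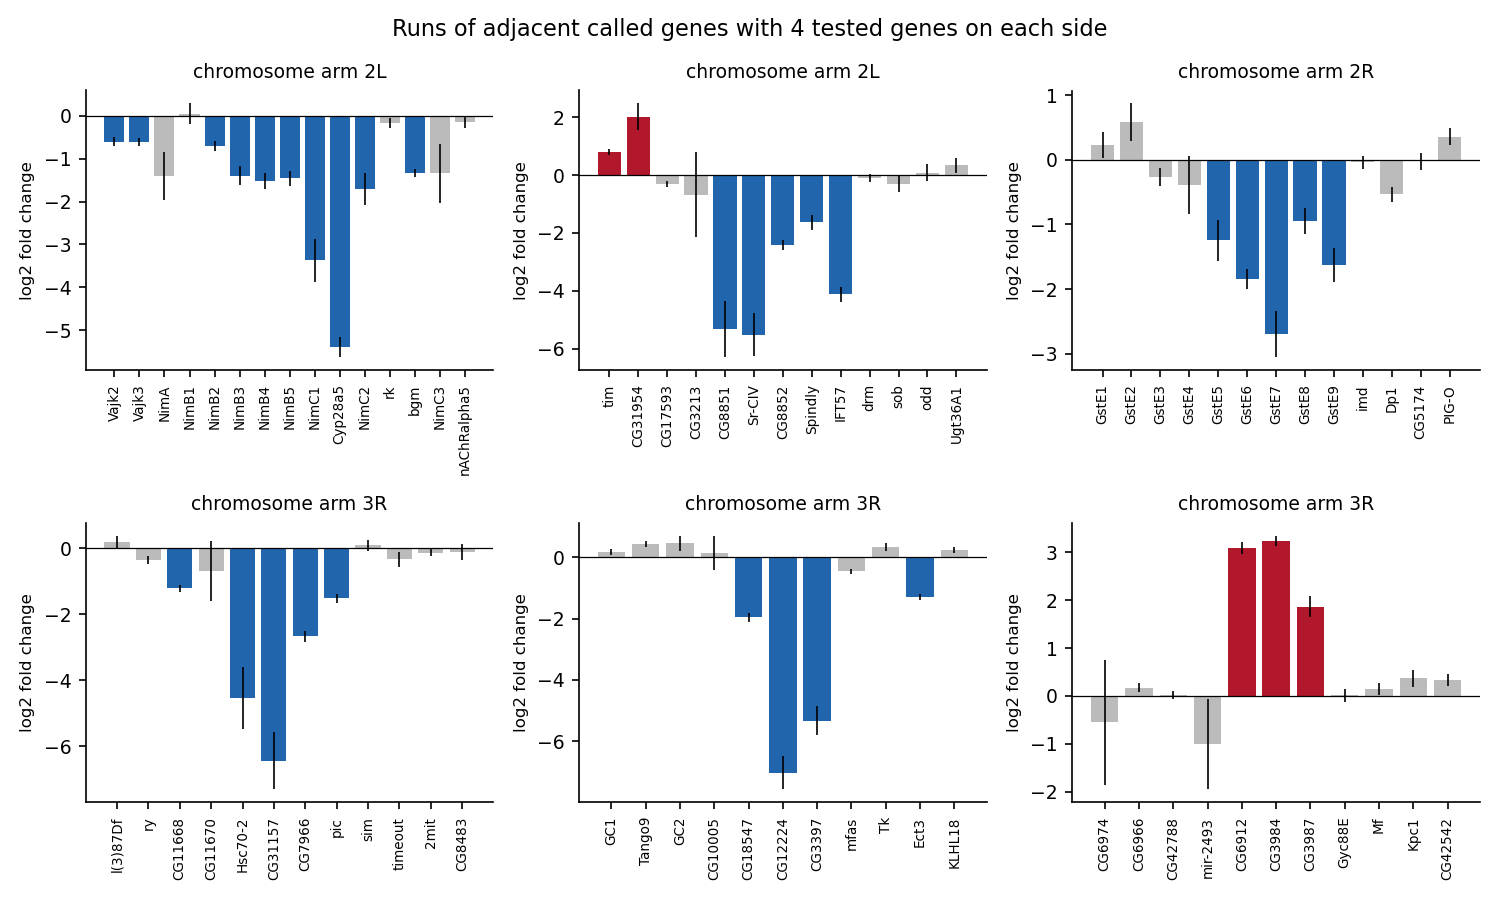
Log2 fold change (mutant over control, bars with the standard error) of tested genes in chromosomal order for 6 runs of adjacent called genes, with 4 tested genes on each side. Called genes are blue (lower) or red (higher) and other genes grey, and the genes next to each run are grey.

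Among genes that digest, store and mobilise nutrients, many were called lower and none higher. Over all genes tested 5.57% were lower and 1.99% higher, the shares to set beside the counts of this and the following groups. Of 23 tested genes of sugar digestion and storage, 10 were lower and 0 higher, with a median of -0.998 on the log2 scale against 0.04 over all genes tested. The amylase genes *Amy-d* and *Amy-p* had 41.4, 28.1 and 38.2 and 33.2, 25.4 and 34.9 CPM in the controls and 6.17, 4.62 and 9.7 and 7.69, 3.41 and 16.4 CPM in the mutants. They are near-identical copies, and only uniquely mapped reads were counted, so reads that match both equally would be missing. *Amy-d* fell by 2.39 on the log2 scale (standard error 0.27, edgeR adjusted p = 0.00143). *Amy-p* had a log2 fold change of -1.76 (edgeR adjusted p = 0.0491) and was highest among the mutants in replicate 3. The alpha-glucosidase gene *tobi*, a target of insulin signalling that overlaps *rha*, fell from 12.1, 11.3 and 13.7 to 3.38, 3.65 and 4.55 CPM (log2 fold change -1.68, edgeR adjusted p = 0.000818), and the maltase gene *Mal-B1* from 7.87, 6.66 and 4.43 to 2.4, 1.63 and 2.02 CPM (log2 fold change -1.65, edgeR adjusted p = 0.00984). *Tps1*, which makes the blood sugar trehalose and was named after its values were seen, had 727, 668 and 715 CPM in the controls and 365, 327 and 364 CPM in the mutants. In the 4 libraries not numbered 3, 11 of 21 tested members were lower. With the share of reads not aligned as a covariate, most of this and the following groups had fewer decreases. Then 4 of 23 genes of sugar digestion and storage, 4 of 17 of fatty acid oxidation and 10 of 79 cytochrome P450s were lower. Of 30 odorant-binding proteins 3 were lower, and of 12 genes of haemocytes and the basement membrane 3. Of 17 neprilysin-like genes 0 were lower, while 5 of 13 peptidases of the angiotensin-converting enzyme and neprilysin families stayed lower.

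Of 17 genes of gluconeogenesis and glycolysis, 4 were lower and 0 higher (median -0.28). *Pepck2* and *Pepck1* are adjacent genes for phosphoenolpyruvate carboxykinase, which commits carbon to glucose synthesis. *Pepck2* had 44.0, 44.2 and 37.4 CPM in the controls and 5.98, 5.31 and 4.79 CPM in the mutants, and *Pepck1* had 452, 464 and 418 CPM and 206, 197 and 175 CPM. Both were lower in all mutant libraries, *Pepck1* by 1.21 on the log2 scale (standard error 0.10, edgeR adjusted p = 0.000281). *PCB*, pyruvate carboxylase, which feeds the same pathway, fell from 558, 487 and 509.8 CPM to 272, 301 and 289.6 CPM (log2 fold change -0.85, standard error 0.09, edgeR adjusted p = 0.00107), and *Hex-C*, a hexokinase gene, from 85.5, 61.0 and 64.3 CPM to 42.6, 34.1 and 35.1 CPM (log2 fold change -0.92, edgeR adjusted p = 0.00849). Of the 17, 4 were also lower without both libraries numbered 3.

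Most of the tested fatty acid oxidation genes were lower. Of 17 tested, 10 were lower and 0 higher, at a median of -0.73 on the log2 scale, and 9 were lower without both libraries numbered 3. *CPT2*, which passes fatty acids into the mitochondrial matrix pathway, had 20.2, 21.5 and 21.4 CPM in the controls and 9.11, 10.5 and 8.83 CPM in the mutants (log2 fold change -1.15, standard error 0.11, edgeR adjusted p = 0.000667). The thiolase gene *yip2* fell from 127, 145 and 145 to 67.8, 76.3 and 73.4 CPM and *scu*, a hydroxyacyl-CoA dehydrogenase, from 142, 142 and 150.1 to 81.3, 69.5 and 86.3 CPM. The changes were moderate but the libraries of a group were close together, and, as in all called genes, no mutant value reached the lowest control. Lipid storage and transport had 8 lower and 0 higher of 24 tested (median -0.50), and 6 lower without both libraries numbered 3. *Desat1*, the desaturase that makes monounsaturated fatty acids, fell from 1382, 1189 and 1307 CPM to 599.7, 531 and 481 CPM (log2 fold change -1.27, standard error 0.11, edgeR adjusted p = 0.000439). The lipid droplet gene *Lsd-1* fell from 115, 124 and 128 CPM to 55.5, 71.5 and 49.3 CPM (log2 fold change -1.06, edgeR adjusted p = 0.00272), and *Apoltp*, a carrier of lipid in the blood, from 149.5, 135 and 166 CPM to 71.8, 82.3 and 77.1 CPM (log2 fold change -0.96, edgeR adjusted p = 0.00108). The lipoprotein gene *apolpp* was called lower over the 6 libraries (log2 fold change -0.82, edgeR adjusted p = 0.035) and not without both libraries numbered 3 (-0.60, edgeR adjusted p = 0.13).

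Enzymes of amino acid breakdown had 7 lower and 0 higher of 18 tested (median -0.45), or 5 lower without both libraries numbered 3. *Gnmt*, which uses up S-adenosylmethionine to methylate glycine and overlaps *CG43630*, fell from 25.6, 23.0 and 31.2 CPM to 9.6, 10.4 and 9.39 CPM (log2 fold change -1.44, standard error 0.14, edgeR adjusted p = 0.000573). Its partner *Sardh*, which turns the methylated product back into glycine, fell from 11.0, 9.77 and 12.0 to 6.22, 3.65 and 5.98 CPM (log2 fold change -1.05, edgeR adjusted p = 0.0212), and this call was lost without both libraries numbered 3 (edgeR adjusted p = 0.058). Of the tyrosine breakdown genes, *Hpd* fell by 1.09 on the log2 scale (edgeR adjusted p = 0.00119), and *hgo* fell from 20.3, 20.4 and 20.9 CPM to 11.2, 10.1 and 9.39 CPM (edgeR adjusted p = 0.00105). Among defences against oxidative stress and metals 4 of 22 were lower. They were the metallothioneins *MtnA* and *MtnB*, which bind metal ions, and the NADPH producers *Zw* and *Men*. *MtnA* varied in the controls (489, 933 and 1145 CPM) more than in the mutants (411, 354 and 352 CPM), and it was not called without both libraries numbered 3 (edgeR adjusted p = 0.0785). Of the 15 genes of insulin and TOR signalling, *tobi* was the only one called.

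Markers of the fat body were split. The fat body, the fly counterpart of liver and adipose tissue, surrounds the brain in the head. Its 6 markers summed to 463 to 566 CPM in the controls and 210 to 309 CPM in the mutants, with no overlap, and *Lsp2* and *apolpp* were called lower. *Lsp2*, a storage protein, had 286, 258 and 287 CPM in the controls and 148, 124 and 86.1 CPM in the mutants (log2 fold change -1.22, standard error 0.18, edgeR adjusted p = 0.00481). The sum was carried by *Lsp2* and *apolpp*. Of the 6 markers 3 had positive and 3 negative log2 fold changes, with a median of 0.57, opposite in sign to the sum, and 1 was called without both libraries numbered 3. The list includes *Fbp1* and *Npc2e*, named after their values were seen, which were at no more than 1.72 CPM in every library. The sums for neurons were 4286 to 4416 CPM in the controls and 4542 to 4812 CPM in the mutants. How much of the metabolic decrease comes with the amount of fat body RNA was not tested.

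Most called detoxification genes were lower as well, as were most called genes in all (5.57% of all genes tested lower and 1.99% higher). Of 79 tested cytochrome P450 genes 25 were lower and 3 higher (median -0.60), and 23 and 4 without both libraries numbered 3. Besides *Cyp28a5* and *Cyp4e3*, *Cyp309a1* fell from 26.3, 16.6 and 20.6 CPM to 2.7, 3.88 and 3.25 CPM (log2 fold change -2.68, standard error 0.21, edgeR adjusted p = 0.000272). *Cyp6a2*, a P450 linked to insecticide resistance that overlaps *Epac*, fell from 117, 109 and 102 CPM to 24.1, 25.8 and 27.1 CPM (log2 fold change -2.09, standard error 0.10, edgeR adjusted p = 3.65e-05). Glutathione S-transferases had 7 lower and 2 higher of 33 (median -0.54), and 7 and 1 without both libraries numbered 3. Their largest group of decreases was a run of 5 neighbours on 2R from *GstE5* to *GstE9*, where *GstE7* fell by 2.70 on the log2 scale (standard error 0.36, edgeR adjusted p = 0.00272), *GstE6* by 1.85 (edgeR adjusted p = 0.000376) and *GstE9* by 1.62 (edgeR adjusted p = 0.00713). The adjacent *GstE1* to *GstE4* were not called, and *GstE5* and *GstE8* lost their calls without both libraries numbered 3 (edgeR adjusted p = 0.105 and 0.122). The genes of this cluster are related in sequence, and only uniquely mapped reads were counted, so short reads that match several of them would be missing. UDP-glycosyltransferases had 5 lower and 0 higher of 25 (median -0.35), and *Oatp33Eb* was the only 1 of 6 tested Oatp transporters called, with the same counts for both families without both libraries numbered 3.

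Genes of haemocytes and of the basement membrane, the matrix sheet that underlies tissues and is largely secreted by fat body and haemocytes, had a large share of decreases. Of 12 tested, 8 were lower and 0 higher, at a median of -1.04 on the log2 scale, and the count was 8 again without both libraries numbered 3. *Hml*, a clotting protein that marks haemocytes, had 53.4, 31.0 and 29.8 CPM in the controls and 8.82, 8.34 and 6.81 CPM in the mutants (log2 fold change -2.25, standard error 0.24, edgeR adjusted p = 0.00107). The scavenger receptor *Sr-CI* fell from 9.0, 5.29 and 6.29 to 1.62, 1.4 and 1.9 CPM (log2 fold change -2.06, edgeR adjusted p = 0.00299) and *NimC1* from 4.16, 1.89 and 3.47 to 0.147, 0.388 and 0.356 CPM. In these genes, as in all called genes, the mutant libraries were separate from the controls. The 4 tested haemocyte markers summed to 220.4 to 256 CPM in the controls and 186 to 237 CPM in the mutants, with overlap. Most of this sum came from *Pxn*, a matrix peroxidase named after its values were seen, which had 189, 182 and 181 CPM in the controls and 175, 219 and 228 CPM in the mutants (edgeR adjusted p = 0.371). Among matrix genes *Ppn*, which encodes papilin, fell from 273, 227 and 227 CPM to 65.1, 73.0 and 61.1 CPM (log2 fold change -1.87, standard error 0.11, edgeR adjusted p = 0.000124). The collagen IV genes *Col4a1* and *vkg*, named after their values were seen, fell by 1.01 and 1.05 on the log2 scale (edgeR adjusted p = 0.00498 and 0.00369). The growth factors of the chitinase-like Idgf family had 3 lower of 6 with or without both libraries numbered 3, of which *Idgf5* fell most, from 18.8, 16.3 and 16.2 CPM to 6.62, 4.07 and 3.37 CPM (log2 fold change -1.87, edgeR adjusted p = 0.00235).

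Several calls of immune genes depended on the libraries numbered 3. Of 14 antimicrobial peptide genes 1, *CecA1*, was called higher and 1, *AttD*, lower, against 1.99% higher and 5.57% lower over all genes. *AttD* had 2.53, 0.567 and 6.49 CPM in the controls and 0.098, 0.233 and 0.396 CPM in the mutants, and its call was lost without both libraries numbered 3 (edgeR adjusted p = 0.038 with and 0.069 without them). The median log2 fold change of the list was 0.78 over the 6 libraries and -0.19 without mutant replicate 3. Of 12 Bomanins, short peptides induced by the Toll pathway, *BomS4* and *BomBc2* were called lower, and 0 were called without both libraries numbered 3. *BomS4* and *BomBc2* overlap each other in the annotation. Among 19 recognition genes the beta-glucan receptor *GNBP3* fell from 71.4, 81.9 and 68.8 CPM to 40.4, 29.2 and 33.8 CPM (log2 fold change -1.10, standard error 0.14, edgeR adjusted p = 0.00215), and the complement-like *Tep2* was also lower. The peptidoglycan receptor *PGRP-SA* was called lower (edgeR adjusted p = 0.0404) but in only 1 of the 6 fits that left out 1 library, and not without both libraries numbered 3 (edgeR adjusted p = 0.217). *GNBP1* was higher (log2 fold change 0.61, edgeR adjusted p = 0.0242), but not called without both libraries numbered 3 (edgeR adjusted p = 0.102), where 4 recognition genes were lower and 0 higher. The stress peptide genes *TotA* and *TotC* were the 2 called of 4 in their family, with or without both libraries numbered 3, with 3.71, 9.49 and 7.7 against 1.91, 2.02 and 2.77 CPM for *TotA*.

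Several families of secreted and sensory proteins held more decreases than increases, as did all genes tested (5.57% lower and 1.99% higher). Of 30 odorant-binding proteins, small carriers of odorants and other ligands, 10 were lower and 0 higher (median -0.64), with the same counts without both libraries numbered 3. *Obp99c*, which overlaps *Gycalpha99B*, fell from 1011, 941 and 1105 CPM to 291, 209 and 257 CPM (log2 fold change -2.01, standard error 0.14, edgeR adjusted p = 0.000158), and *Obp99b* from 64.2, 37.8 and 50.1 CPM to 12.0, 6.52 and 7.84 CPM (log2 fold change -2.54, standard error 0.27, edgeR adjusted p = 0.000984). The neighbours *Obp56c*, *Obp56d* and *Obp56e* formed a run, in which *Obp56c* lost its call without both libraries numbered 3 (edgeR adjusted p = 0.0714) and *Obp56d* fell from 976, 1090.3 and 1260.4 to 507, 413 and 562 CPM. Fewer of the receptors were detected, and 26 of 61 odorant receptors could be tested. Of these *Or45b* was called higher (1.46, 1.61 and 2.52 CPM in the controls and 4.17, 5.62 and 4.32 CPM in the mutants), 0 of 23 gustatory receptors were called, and 4 of 28 ionotropic receptors were lower, among them *Ir76b*, a co-receptor, at 7.25, 8.12 and 11.0 and 4.51, 4.3 and 4.55 CPM. Only 1 ionotropic receptor was lower without both libraries numbered 3.

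Cuticle proteins had 14 lower (15.6%) and 4 higher (4.44%) of 90 (median -0.19), and 11 and 3 without both libraries numbered 3. Over all genes tested 5.57% were lower and 1.99% higher. The increases included *Cpr56F* and *Cpr72Ec*, a cuticular protein of the eye lens, which rose from 239.7, 194 and 161 CPM to 575, 382 and 475 CPM (log2 fold change 1.27, standard error 0.19, edgeR adjusted p = 0.00453). The decreases included the adult cuticle gene *Acp1*, which fell from 901, 711 and 956 CPM to 379, 271 and 357 CPM in a run with *CG31904* and *CG7214* on 2L. Peptidases of the angiotensin-converting enzyme and neprilysin families, which cut peptides outside the cell, had 5 lower and 0 higher of 13 (median -0.66), with the same counts without both libraries numbered 3. They were *Ance*, *Ance-4*, *Ance-5*, *Acer* and *Nep6*, each with log2 fold changes between -1.74 and -1.12. *Ance* had 94.7, 92.4 and 81.0 CPM in the controls and 28.4, 28.7 and 26.3 CPM in the mutants (edgeR adjusted p = 0.000124). Of 17 neprilysin-like genes (Nepl), a family singled out after its values were seen, 10 were lower, including the runs *Nepl13* to *Nepl15* and *Nepl18* to *Nepl21* on 3R. Only 6 were lower without both libraries numbered 3, and the calls of *Nepl13* and *Nepl19* were lost (edgeR adjusted p = 0.139 and 0.141), which broke both runs. Of 18 genes of ecdysone and juvenile hormone 3 were lower, with or without both libraries numbered 3, all enzymes that break down juvenile hormone, with 6.69, 6.66 and 7.3 CPM in the controls and 2.65, 3.3 and 2.93 CPM in the mutants for *Jhe* (log2 fold change -1.22, edgeR adjusted p = 0.00632) and log2 fold changes of -1.001 for *Jheh1* (edgeR adjusted p = 0.00589) and -0.65 for *Jheh2* (edgeR adjusted p = 0.00544).

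Among the gene lists, those of vision and neuropeptides held the most increases, with 7 and 6 of the 245 genes called higher. With the share of reads not aligned as a covariate, 1 and 0 of their members were called higher, and most lists of decreases lost calls as well. Of 26 phototransduction and eye genes, 7 were higher and 1 lower (median 0.30), against 1.99% higher over all genes. The 5 photoreceptor markers summed to 35940 to 42802 CPM in the controls and 54247 to 55110 CPM in the mutants, with no overlap, and the part of photoreceptor RNA content in these increases was not tested. *Rh5*, the blue-sensitive rhodopsin, had 290.5, 313 and 338 CPM in the controls and 606, 567 and 628 CPM in the mutants (log2 fold change 0.94, standard error 0.09, edgeR adjusted p = 0.000751). The arrestin gene *Arr1* rose from 4981, 5408 and 5424 CPM to 7862, 8964 and 8280.4 CPM (log2 fold change 0.67, standard error 0.09, edgeR adjusted p = 0.0032). The phototransduction channel gene *trpl* rose from 2329.9, 2789.9 and 2740.0 CPM to 3631, 4275 and 4506 CPM (log2 fold change 0.66, edgeR adjusted p = 0.0108). The mutant and control values were separate, as in all called genes, but the folds were small. The ultraviolet rhodopsin *Rh3* (log2 fold change 0.62, edgeR adjusted p = 0.0433) and *ninaA*, a chaperone of rhodopsin (log2 fold change 0.74, edgeR adjusted p = 0.0129), were higher as well. Without both libraries numbered 3, 4 of the 26 were higher and 1 lower, and *Rh3* and *trpl* were no longer called (edgeR adjusted p = 0.0511 and 0.0722). *Rh4* and *Rh6*, rhodopsins of other inner photoreceptors named after their values were seen, had log2 fold changes of -0.07 and 0.05 (edgeR adjusted p = 0.647 and 0.739). The main rhodopsin gene *ninaE*, also named after its values were seen, was at 25806, 32592 and 33443 CPM in the controls and 42078, 43176 and 43293 CPM in the mutants, which did not overlap but lay within the 1.5-fold limit (log2 fold change 0.49, edgeR adjusted p = 0.0292). *Rh7*, an opsin also found in the brain, was lower (log2 fold change -1.04, standard error 0.13, edgeR adjusted p = 0.00213).

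Of 32 neuropeptide genes 6 were higher and 1 lower (median 0.31), against 1.99% higher and 5.57% lower over all genes. *Capa*, whose peptides act on the Malpighian tubules, rose from 48.9, 50.0 and 42.6 CPM to 79.5, 80.2 and 67.7 CPM (log2 fold change 0.68, standard error 0.11, edgeR adjusted p = 0.00685). *AstC*, which encodes allatostatin C, rose from 21.2, 33.0 and 35.9 CPM to 50.7, 58.7 and 47.9 CPM (log2 fold change 0.80, edgeR adjusted p = 0.0353), and *FMRFa* from 14.4, 19.1 and 15.4 CPM to 24.2, 24.6 and 29.9 CPM (log2 fold change 0.68, edgeR adjusted p = 0.0216). The others called higher, named after their values were seen, were *Lk*, *Hug* and *Trissin*, with log2 fold changes between 0.60 for *Trissin* and 0.67 for *Lk*. *Nplp4* was lower, with 4.22, 6.56 and 7.2 CPM in the controls and 1.91, 1.2 and 0.911 CPM in the mutants (log2 fold change -2.16, edgeR adjusted p = 0.00737). Without both libraries numbered 3, 3 were higher and 1 lower, and *FMRFa* was no longer called (edgeR adjusted p = 0.157). Of 14 clock genes 1 was higher and 1 lower (7.14% each), with or without both libraries numbered 3. The core clock repressor *tim* was higher (204, 212 and 179 CPM in the controls and 322, 386 and 327 CPM in the mutants, log2 fold change 0.80, edgeR adjusted p = 0.00317). The clock output gene takeout (*to*), which links feeding to the clock, fell from 30.4, 22.6 and 18.1 CPM to 2.84, 2.4 and 2.06 CPM (log2 fold change -3.28, standard error 0.23, edgeR adjusted p = 0.000159). The hour of collection is not given in the sources used here.

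Few genes of synaptic transmission were called, where 7.56% of all genes tested were called. Of 25 genes of synaptic vesicles and active zones 0 were called (median 0.09), of 25 neuronal ion channels 0 (median 0.05), and of 35 neurotransmitter receptors 1, the nicotinic receptor subunit *nAChRbeta3*, which overlaps *Ets21C* and fell from 17.7, 13.6 and 14.4 CPM to 4.7, 5.55 and 7.13 CPM (log2 fold change -1.39, edgeR adjusted p = 0.00288). Among 18 genes of learning and memory 1 was lower (5.56%, beside 5.57% over all genes). This was *Arc1*, an activity-regulated gene related to retrotransposon Gag proteins, with 219.5, 195 and 267 CPM in the controls and 143, 120.2 and 150.2 CPM in the mutants (log2 fold change -0.72, standard error 0.14, edgeR adjusted p = 0.0136). Of the neurotransmitter receptors 3 were higher and 1 lower without both libraries numbered 3. The pan-neuronal gene *elav*, named after its values were seen, had 207, 199 and 217 CPM in the controls and 218, 179 and 173 CPM in the mutants, with overlapping groups. Of the glial markers *alrm*, an astrocyte gene that overlaps *Fur1*, was lower (48.5, 38.0 and 35.9 CPM in the controls and 16.7, 11.7 and 11.5 CPM in the mutants, log2 fold change -1.62, edgeR adjusted p = 0.00144), while *repo*, a general glial factor named after its values were seen, had 90.1, 72.4 and 79.1 and 61.1, 75.6 and 71.0 CPM with overlapping groups (edgeR adjusted p = 0.294).

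Large groups of housekeeping genes had few or no calls, where 7.56% of all genes tested were called. Of 86 cytosolic ribosomal protein genes 0 were called (median -0.09) and of 82 genes of the respiratory chain and ATP synthase 0 were called (median 0.14). Of 70 mitochondrial ribosomal protein genes 2 were higher (2.86%, beside 1.99% over all genes) and 0 lower. Of the 70, 57 were above 0, with a median of 0.24. The called genes were *mRpL43* (log2 fold change 0.65, edgeR adjusted p = 0.0129) and *mRpS18A* (log2 fold change 0.62, edgeR adjusted p = 0.0489), and neither was called without both libraries numbered 3 (edgeR adjusted p = 0.149 and 0.141). A related gene, *mTTF*, which ends transcription on mitochondrial DNA, had 6.92, 6.61 and 8.25 CPM in the controls and 10.4, 12.2 and 11.7 CPM in the mutants (log2 fold change 0.66, edgeR adjusted p = 0.0255), and was not called without both libraries numbered 3 (edgeR adjusted p = 0.082). It was 1 of 5 genes the study names. All 5 were called here, and the other 4 were lower, *Reg-2* by 1.17, *Acer* by 1.13, *PCB* by 0.85 and *Arc1* by 0.72 on the log2 scale. The study chose these genes on the same samples, so they are not independent evidence.

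**Figure D5:**
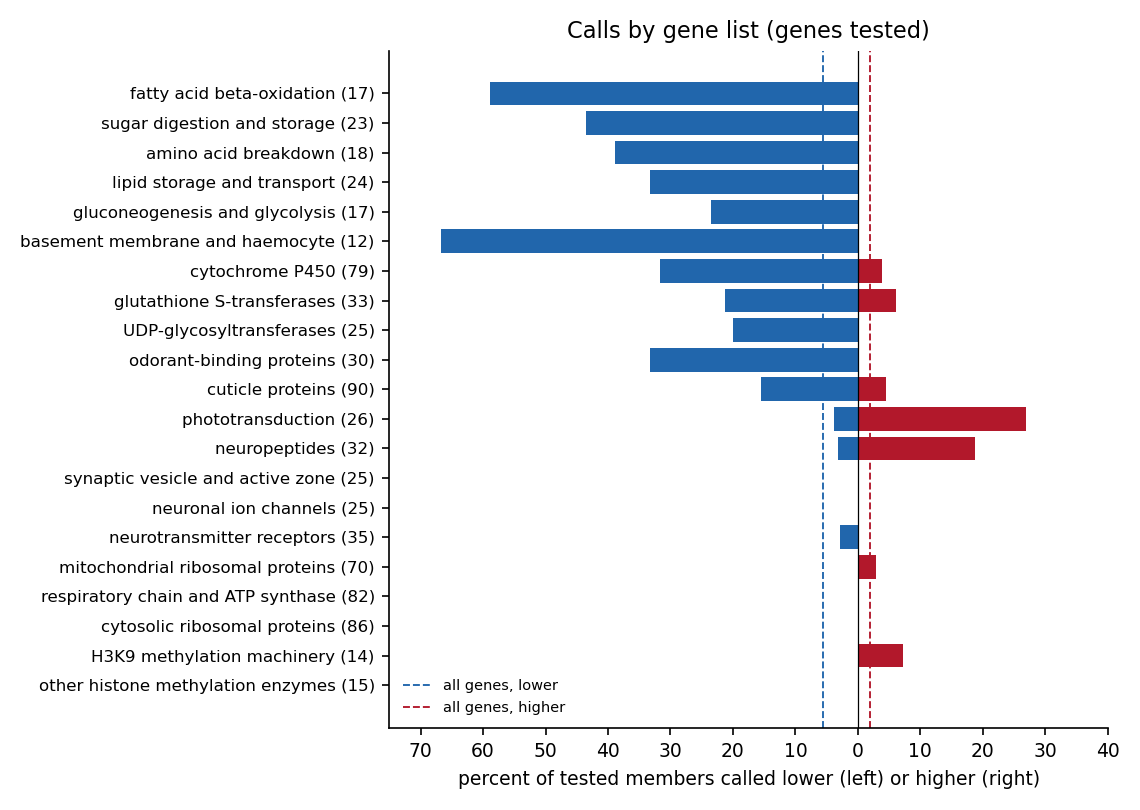
Percent of the tested members of each gene list called lower (blue, to the left) or higher (red, to the right), with the number tested in parentheses and dashed lines at the share over all genes (5.57% lower and 1.99% higher). Metabolic, detoxification and haemocyte lists extend to the left, and phototransduction and neuropeptide lists to the right.

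Of the 10 called genes with the highest CPM, which is not corrected for gene length, 7 were lower. *CG17108* fell from 7287, 5619 and 5968 CPM to 2654, 1490.2 and 1816 CPM (log2 fold change -1.66, standard error 0.21, edgeR adjusted p = 0.00235). *EbpIII*, known from the male ejaculatory bulb and also found in antennae, fell from 1957, 2255 and 1918 CPM to 1481, 1119.7 and 1149.6 CPM (log2 fold change -0.71, edgeR adjusted p = 0.0128), and was not called without both libraries numbered 3 (edgeR adjusted p = 0.0557). The 3 of the 10 that were higher were the visual genes *Arr1*, *trpl* and *Rh3*.

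The calls were spread over all chromosomes, with a different pattern on the small chromosome 4, which is largely heterochromatic. On the large arms 4.83% to 6.57% of the tested genes were lower, and 0.916% (X) to 2.43% (3R) were higher. Of 88 tested genes on chromosome 4, 5 were higher (5.68%) and 2 lower. Among its 83 genes at 1 CPM or more, 74 (89.2%) had a positive log2 fold change, with a median of 0.40, against 53.4% and a median of 0.03 over all 9573 genes at that level. A similar shift was measured in genes that lie in pericentric heterochromatin on other chromosomes, where 15 of 16 were positive with a median of 0.35, and *rl*, which encodes the MAP kinase, was called higher (4.16, 7.32 and 7.6 CPM in the controls and 13.3, 10.8 and 12.5 CPM in the mutants, log2 fold change 0.94, edgeR adjusted p = 0.0388), though not without both libraries numbered 3 (edgeR adjusted p = 0.0639). These shifts rested unevenly on the libraries. The median level of chromosome 4 relative to all genes was -0.52, -0.04 and -0.06 on the log2 scale in the controls and 0.46, 0.08 and 0.07 in the mutants. Both groups were thus separate, but control replicate 1 and mutant replicate 1 stood far from the other 4 libraries. Control replicate 1 also had the largest share of reads that could not be aligned (20.4%), and mutant replicate 1 the largest share of reads outside genes (19.8%, against 13.5% to 19.1% in the other 5). With the share of reads not aligned as a covariate, the median was 0.04 on chromosome 4 and turned to -0.08 in the 16 heterochromatic genes. In the 4 *trr* libraries, scaled with these 6, chromosome 4 lay at 0.65 to 0.84, above every library of the *G9a* experiment (-0.87 to -0.04). The part of these library differences in the shift of chromosome 4 was not tested.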

How the data were processed

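Libraries were made by the authors from mRNA purified from total RNA of fly heads. They aligned reads with BWA (version 0.6.1) to dm3 and counted uniquely mapped reads per Ensembl gene (BDGP5) with HTSeq. The deposited values are these counts, with no normalisation. The strand setting is not given in the sources used here. The 5 summary rows were dropped, and genes with at least 10 counts over the 6 libraries were kept. After TMM scaling, counts entered quasi-likelihood fits in edgeR (version 4.0.16, R 4.3.3) with Benjamini-Hochberg adjustment over all genes. A gene was called at an adjusted p under 0.05 and a fold over 1.5. Replicates are separate samples by their labels, and p-values measure only the spread between them. On simulated counts with 200 genes changed, 198 were recovered with 4 false calls among 12106 genes. The changed genes were all well counted, and their median absolute log2 fold change in the fit was 2.02. No simulated library stood apart from its group. The result therefore does not carry over to smaller changes, to low counts or to the uneven libraries here.

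The deviations of same-numbered mutant and control libraries correlated at 0.25, 0.18 and 0.44, although no shared batch is named. Control 1 with mutant 2 correlated at 0.22, and control 2 with mutant 1 at 0.13. Pairs with only 1 library numbered 3 lay between -0.35 and -0.19. The libraries numbered 1 and 2 were thus little more alike within a number than across numbers. Values with a replicate block are in the closing section.

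Genes were named by rule: the 15 largest increases and decreases with at least 100 mean counts in the higher group, the 10 called genes with the highest mean CPM, called members of gene lists (the 4 largest in lists with over 6), genes within 3 counts in every library of a group, runs of 3 neighbours, *G9a* with its neighbours, and genes named by the study. The 15 largest increases and decreases were taken only among called genes with a symbol whose groups did not overlap. Genes named outside these rules are marked as chosen after their values were seen. Members and lists were chosen with earlier results of these data known. Symbols, arms, order and overlaps come from the RefSeq table of Release 6, and coordinates were not used. Other libraries entered only where named.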

Additional observations from a re-analysis of the deposited data

How the results depend on the processing

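The count of 932 called genes (245 higher and 687 lower) was 940 with DESeq2's size factors in edgeR, 1093 with DESeq2 (version 1.42.0), 1079 with edgeR's expression filter, 958 with no filter and 1104 when all 10 libraries were fitted. With the replicate block it was 1094 (308 higher and 786 lower), of which 904 were among the 932. It was 758 with the share of reads outside genes as a covariate. Without the fold limit 1372 genes passed, 449 of them higher. A test against the 1.5-fold limit itself called 313 (52 higher and 261 lower), which raised the lower share from 73.7% to 83.4%. With the share of reads not aligned as a covariate, an alternative chosen after seeing the data, 221 were called (28 higher and 193 lower, or 87.3% lower), and the cause was not tested. Leaving out 1 library at a time gave 652 to 944 calls, 142 to 222 higher and 492 to 722 lower, with the lowest higher count without mutant replicate 2. The log2 fold change of *G9a* stayed between 0.17 and 0.49 and was not called under any alternative. Named genes that were called gave 3179 values, of which 0 changed sign and 490 lost the call. In fits that left out libraries the sign could hardly change, since the groups of every called gene did not overlap. Named genes that were not called gave 370 values, of which 44, from 16 genes, changed sign, with *egg* and *Su(var)3-9* among them.

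In 8 cases a list median changed sign by more than the median standard error of a member, with neither median near no change. Sign changes short of these limits are not among the 8. With the share of reads not aligned as a covariate, the Methuselah-like receptors went from 0.07 to -0.27. The respiratory chain and ATP synthase went from 0.14 to -0.005. The heterochromatic genes had a median of -0.11 with the share of reads not aligned as a covariate, and the antimicrobial peptides -0.19 without mutant replicate 3 (-0.19 to 1.08 with 1 library left out at a time). The fat body markers were at -0.82 with edgeR's expression filter, which leaves fewer of them, at -0.56 without mutant replicate 1 and at -0.63 without mutant replicate 2 (-0.63 to 0.84 with 1 library left out). The testis and accessory gland markers were at -2.39 with the not-aligned covariate, at -5.36 without mutant replicate 3 (-5.36 to 5.07 with 1 library left out) and at -3.26 without both libraries numbered 3.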
